A study of Mus musculus with 6 samples.

Results

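Goblet cells are the mucus-secreting cells of wet epithelia, and on the eye they sit in the conjunctiva rather than in the corneal epithelium. They pack gel-forming mucins, long and heavily glycosylated proteins, into granules together with trefoil factors, small secreted peptides that take part in mucosal repair. The transcription factors Spdef and Foxa3 drive the secretory programme, Creb3l1 is a transcription factor that is released from the endoplasmic reticulum (ER) and acts on secretory pathway genes, and Agr2 is an ER protein needed for mucin folding. The goblet cell genes examined here were chosen by name, as rows of the gene table whose symbol was Muc5ac, Muc5b, Tff1, Tff2, Tff3, Agr2, Spdef, Foxa3 or Creb3l1. Of these 9 names, 8 had a row among the 17866 protein-coding genes of the table, and Tff3 was not analysed here.

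RNA came from the separated corneal epithelium of C57BL/6 mice aged 6 months, in 3 libraries labelled WT and 3 labelled Rela-/- (KO below). In the study, mutant mice carried Krt14-Cre together with the floxed Rela allele, and the WT libraries came from age-matched control mice. Rela encodes the p65 subunit of NF-κB. Krt14-Cre acts in epithelial cells that express keratin 14, which include those of the conjunctiva, so this driver is not specific to the cornea. In the paper, conjunctival structure at 6 months was unaffected by Rela ablation on Alcian blue staining, for which goblet cells were also quantified. Whether each library came from 1 animal or from pooled animals is not given in the sources used here, and p-values measure the spread between these libraries. Library totals lay between 20158404 and 20880347 estimated counts. Rela itself fell from 86.4 ± 1.21 to 14.3 ± 2.71 CPM (library-size scaled counts, mean ± SD over the 3 libraries of each group).

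Of the 8 goblet cell genes in the table, only Agr2 had 10 or more counts in a WT library. Muc5ac, Muc5b, Creb3l1 and Spdef rose from at most 6.96 counts in any WT library to between 14 and 215.9 counts in each KO library, and Agr2 rose 3.77-fold. The other 3 members in the table, Tff1, Tff2 and Foxa3, had at most 8 counts in any library and too few for the main test. One KO library, replicate 2, held far fewer Muc5ac and Muc5b reads than the other KO libraries, although its total was close to theirs.

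For 2 of the regulators and folding factors, Spdef and Agr2, the RefSeq table used here (GRCm38.p6) held a promoter, as it did for Foxa3. The 250 bases before the start of Spdef and Agr2 are shown because both members were higher in KO, from different WT levels. Capitals mark matches on either strand to a forkhead core (TNTTTAC), an NF-κB type site (GGG and CC with any 5 bases between them) or a Creb3-family core (CCACG). The Spdef stretch lies on the minus strand at chr17:27728952-27729201, and the Agr2 stretch on the plus strand at chr12:35992675-35992924. The RefSeq start used for Spdef lies within the bounds that the gene table gives for this gene. Both stretches are written 5′ to 3′.
Spdef: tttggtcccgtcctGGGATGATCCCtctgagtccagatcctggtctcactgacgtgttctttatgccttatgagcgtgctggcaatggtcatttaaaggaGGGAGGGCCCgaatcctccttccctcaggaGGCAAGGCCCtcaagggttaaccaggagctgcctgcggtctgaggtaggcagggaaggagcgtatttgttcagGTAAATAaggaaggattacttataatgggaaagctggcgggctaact
Agr2: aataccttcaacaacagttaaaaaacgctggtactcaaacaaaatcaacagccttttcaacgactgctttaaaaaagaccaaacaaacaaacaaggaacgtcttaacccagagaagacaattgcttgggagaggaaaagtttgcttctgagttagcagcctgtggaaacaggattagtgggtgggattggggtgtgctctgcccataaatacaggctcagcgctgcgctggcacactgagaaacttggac

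The Spdef stretch held 1 forkhead match, 47 to 41 bases before the start on the opposite strand, and NF-κB type matches in 3 places. The first of these places, 236 to 226 bases before the start, holds overlapping matches on both strands. The Agr2 stretch held no match to any of the 3 motifs. Foxa3, with at most 1 count in any library, has a stretch that is not shown. It held NF-κB type matches between 117 and 40 bases before the start, and a Creb3-family match from 215 to 211. Such matches are common by their letters alone. Of 32851 promoters in the table, 10.9% held the forkhead core, 45.8% the NF-κB type site and 28.3% the Creb3-family core in the same window.

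**Figure D1:**
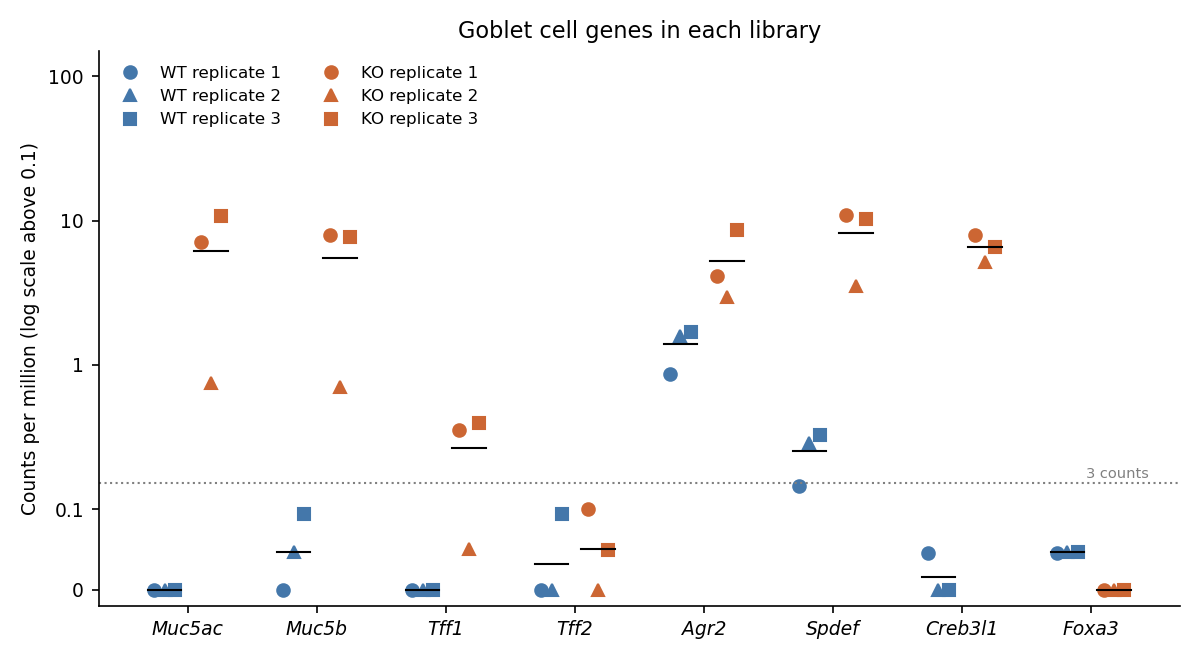
Level of each goblet cell gene in every library, in CPM on an axis that is logarithmic above 0.1. Blue marks are WT and orange marks KO libraries, black bars are group means (n = 3), and the dotted line marks 3 counts. Muc5ac, Muc5b, Creb3l1, Spdef and Agr2 sit higher in each KO library than in any WT library, and KO replicate 2 (triangles) is the lowest KO library for each of them.

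The gel-forming mucins were examined first. Muc5ac, the main secreted mucin of conjunctival goblet cells, lies on the plus strand of chromosome 7 (GRCm38, positions 141788958 to 141819217, gene 17833). WT replicates 1 to 3 held 0, 0 and 0 counts of it, against 141, 15 and 214 for KO replicates 1 to 3. No read was found in WT, and every KO library had some. Set against a floor of 3 counts in each WT library, the mean of the KO libraries was at least 44.3-fold higher, KO replicate 2 alone at least 5.39-fold, and the mean without that library at least 63.7-fold. In edgeR the log2 fold change was 10 ± 1.84 (SE) with an adjusted p of 0.00352, a size that depends on the small count the tool adds to zeros and gives no bound.

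Muc5b, another gel-forming mucin, follows Muc5ac on the same strand (chromosome 7, positions 141839012 to 141873089, gene 74180). In WT it held 0, 1 and 2 counts, against 158, 14 and 155 in KO. The groups did not overlap, as for 34.7% of tested genes with KO as the higher group, and KO replicate 2 was again the low one. With only 3 WT counts in all, the ratio of the summed counts scaled to library size was 117.6, with an exact 95% counting interval from 39.9 to 573 that covers counting error only. In edgeR the log2 fold change was 6.70 ± 1.17 (SE), with an adjusted p of 0.00125. Muc5ac and Muc5b kept a similar balance within each KO library, with 0.892, 1.07 and 1.38 Muc5ac counts per Muc5b count in KO replicates 1, 2 and 3.

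Trefoil factors, which goblet cells secrete with the mucins, were hardly detected. Tff1 (chromosome 17, positions 31161395 to 31165062, minus strand, gene 21784) showed 0, 0 and 0 counts for WT, against 7, 1 and 8 for KO. Its KO mean was at least 1.92-fold higher than 3 counts per WT library, but KO replicate 2 was under that floor. Tff1 had too few counts for the main test. When no filter on low counts was applied, it was called higher (log2 fold change 5.49 ± 1.51 (SE), adjusted p = 0.0229). Tff2 (chromosome 17, positions 31141062 to 31144282, minus strand, gene 21785) showed 0, 0 and 2 counts for WT, against 2, 0 and 1 for KO. Each library was at or under the floor, so no difference was detectable at this depth.

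Among the regulators, Spdef, an ETS-family transcription factor required for goblet cell maturation, lies on the minus strand of chromosome 17 (positions 27714446 to 27731003, gene 30051). Its estimated counts for WT were 3.18, 6.22 and 6.96, against 215.9, 69.85 and 204.79 for KO. All 3 KO libraries stood far above WT, and KO replicates 1 and 3 were 3.12-fold and 2.91-fold above KO replicate 2. Its mean CPM was 0.255 ± 0.0967 (SD, n = 3) in WT against 8.21 ± 4.10 (SD, n = 3) in KO. The log2 fold change in edgeR was 5.01 ± 0.55 (SE), with an adjusted p of 1.00e-04. The estimated counts of Spdef were not whole numbers, so part of its reads was shared with other loci and the level is uncertain to that extent.

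Creb3l1 (chromosome 2, positions 91982328 to 92024170, minus strand, gene 26427) held 1, 0 and 0 counts for WT, against 157, 103 and 131 for KO. It was the steadiest of the risen members, with KO libraries within 1.54-fold of each other. The scaled ratio of summed counts was 421.7, with an exact 95% counting interval from 75.3 to 16700 because a single WT read stood against 391 KO reads. The edgeR log2 fold change was 8.25 ± 0.518 (SE), with an adjusted p of 5.57e-06. Foxa3 (chromosome 7, positions 19013283 to 19023539, minus strand, gene 15377) held 1, 1 and 1 counts for WT, against 0, 0 and 0 for KO. With no library above 3 counts, a difference in expression of this regulator was not detectable at this depth.

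Agr2 (chromosome 12, positions 35992925 to 36004081, plus strand, gene 23795), the ER protein of the disulfide isomerase family that mucin folding needs, was the sole member with 10 or more counts in a WT library. Libraries of WT held 19, 34 and 36 counts, against 82, 59 and 172 for KO. The groups did not overlap, but KO replicate 2 lay closer to the highest WT library than to KO replicate 3. Its mean CPM was 1.39 ± 0.45 (SD, n = 3) in WT against 5.23 ± 2.96 (SD, n = 3) in KO. The edgeR log2 fold change was 1.91 ± 0.436 (SE), with an adjusted p of 0.00506.

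Of the 13305 genes tested, 62.0% were called at an adjusted p of 0.05 in edgeR, 31.8% of them higher and 30.2% lower in KO as a share of all tested genes. All 5 tested members were called higher. However, 4 of these 5 had under 10 counts in every WT library and entered the test through their KO counts, so a difference was built into their selection and the count is not read as evidence about the group. Agr2 had counts in each library. At the stricter threshold of the study (fold change of 2 or more, adjusted p not above 0.001), Creb3l1 and Spdef remained, where 11.6% of tested genes were higher and 8.24% lower. A rise from near silence was not particular to these genes. In the table, 3465 genes had at most 3 counts in every WT library, and 85 of them reached a KO mean of at least 100 counts, among them Muc5ac, Muc5b and Creb3l1.

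**Figure D2:**
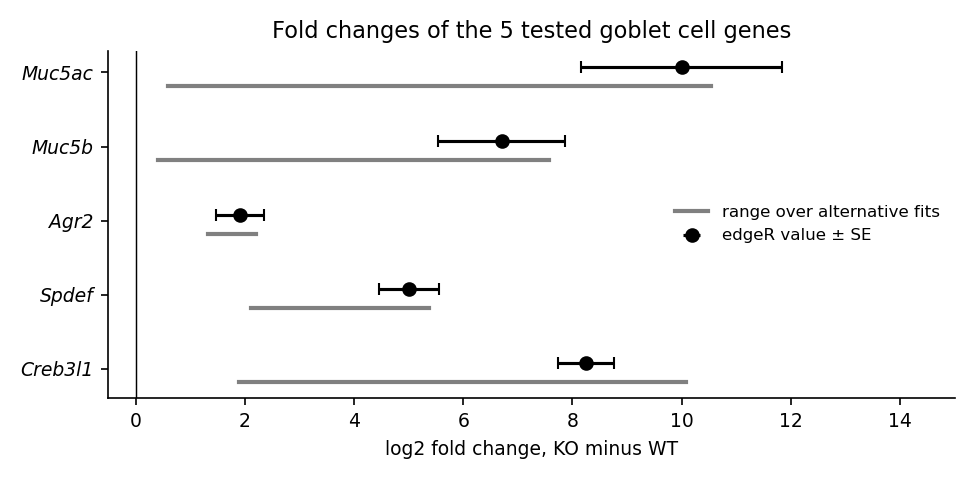
The log2 fold changes (KO minus WT) of the 5 tested goblet cell genes, as black points with the standard error of the edgeR fit. Grey lines span the values of 16 alternative fits, whose low ends come from limma on log2(FPKM + 1), where low levels are compressed towards 0. All of them lie above 0, a side built into the selection of the 4 genes that entered the test through their KO counts.

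Levels of different genes were compared per length, with the deposited FPKM. In KO the order of mean levels was Agr2 (6.82 ± 3.81 FPKM), Spdef (4.15 ± 2.10), Creb3l1 (2.77 ± 0.540), Tff1 (0.570 ± 0.401), Muc5ac (0.550 ± 0.436) and Muc5b (0.347 ± 0.257, all mean ± SD, n = 3). The range of Spdef (1.74 to 5.54 FPKM) overlapped those of its neighbours Agr2 (3.96 to 11.2) and Creb3l1 (2.24 to 3.32), so that these neighbours did not differ beyond their spread, whereas each Agr2 value lay above each Creb3l1 value. The ranges of Tff1, Muc5ac and Muc5b overlapped one another. Creb3l1, at 2.24 FPKM or more, stood above the highest Muc5ac value of 0.94 FPKM in every KO library. Per length, Spdef exceeded Muc5ac by 8.79, 21.8 and 5.51 times in KO replicates 1, 2 and 3. In WT, Agr2 (1.94 ± 0.598 FPKM) was followed by Spdef (0.113 ± 0.0462). For scale, the median KO mean among genes above 0 was 3.8 FPKM. In bulk RNA, a change in the number of expressing cells and a change in RNA per cell cannot be told apart.

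KO libraries varied widely in their mucin levels. The coefficient of variation (SD over mean) in KO was 81.2% for Muc5ac, 75.5% for Muc5b, 56.5% for Agr2, 49.9% for Spdef and 21.3% for Creb3l1. Among 5120 genes with a KO mean between 50 and 500 counts, the median was 12.3% and 17 genes, Muc5ac included, had a value at or above that of Muc5ac. Muc5ac was 9.49-fold and 14.2-fold higher in KO replicates 1 and 3 than in KO replicate 2, and Muc5b 11.4-fold and 11-fold. Creb3l1 differed by only 1.54-fold and 1.26-fold in the same comparison.

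**Figure D3:**
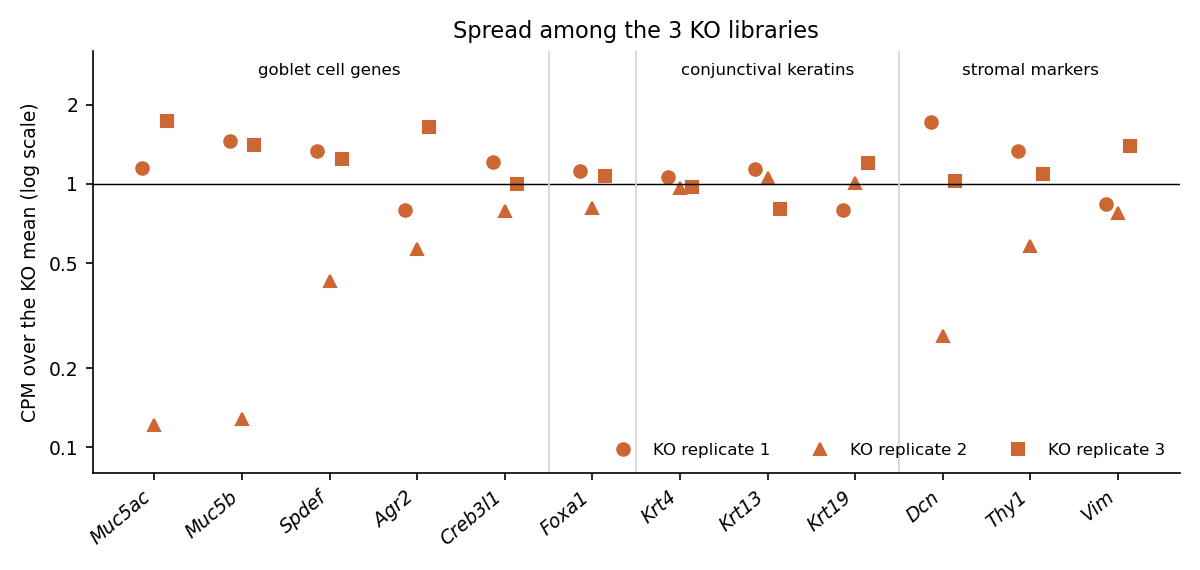
Level in each KO library divided by the KO mean, on a log axis, for the tested goblet cell genes, the forkhead factor Foxa1, 3 keratins of the conjunctival list and 3 stromal markers. KO replicate 2 (triangles) lies far below the other KO libraries for Muc5ac, Muc5b and Dcn, and Krt4 shows the smallest spread of the genes drawn. The genes drawn are a selection from their lists. Krt7, Krt8 and Krt18, which varied more than the keratins drawn, are left out. So are Col1a1 and Pdgfra, which were not lowest in KO replicate 2.

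Markers of other tissues were measured beside these values. The summed CPM of 6 conjunctival keratins lay between 1944 and 2975 in WT and between 52350 and 66978 in KO, with 4 of 6 called higher and none lower, where 31.8% of all tested genes were higher. Krt8 did not pass (log2 fold change -0.91, adjusted p = 0.0612) and was called lower in 6 of 16 alternative fits, the replicate block and DESeq2 among them. In the list, Krt4 and Krt13, keratins of non-cornified stratified epithelium, made up most of the sum. Krt4 had 456412, 419096 and 423427 counts in KO replicates 1, 2 and 3 and so did not share the low value of replicate 2. Other keratins of the list varied more, with a KO coefficient of variation of 56% for Krt18, 51.2% for Krt8 and 38.5% for Krt7. Krt18 was lowest in KO replicate 2, with 41, 25 and 78 counts in KO replicates 1, 2 and 3. By contrast, Krt7, Krt8 and Krt19 were lowest in KO replicate 1 and Krt13 in KO replicate 3. The 6 corneal markers, Krt12 among them, summed to between 68054 and 68880 CPM in WT and between 11587 and 14327 CPM in KO, so corneal epithelium was present in all 6 libraries. The 5 epidermal markers summed to between 15.1 and 20.3 CPM in WT, and to 23959, 11563 and 14642 CPM in KO replicates 1, 2 and 3.

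Over all tested genes, 31.8% were higher and 30.2% lower in KO. Of 6 stromal markers, 5 were tested, 4 were higher and 1 lower. Their summed level was between 13.4 and 16.8 CPM in WT and was 28.7, 17.5 and 30.5 CPM in KO replicates 1, 2 and 3. Dcn, the gene of the matrix proteoglycan decorin, held 1, 0 and 1 counts for WT, against 153, 24 and 93 for KO, and was thus low in the same KO library as the mucins. Thy1 was also lowest there, with 191, 84 and 159 counts in KO. Other markers of the list differed, with 27, 49 and 51 KO counts of Col1a1, and Pdgfra fell from 275, 235 and 330 counts to 23, 28 and 21. Lum, which encodes the corneal stromal proteoglycan lumican, had at most 4 counts in any library. The 6 immune markers summed to between 28.7 and 34.3 CPM in WT and between 31.9 and 45.9 CPM in KO (2 of 4 tested higher, 1 lower). Most of this sum was Cd68, which did not pass (log2 fold change 0.09, edgeR adjusted p = 0.627). Ptprc rose 13.1-fold (edgeR adjusted p = 3.62e-05). Adgre1 rose from at most 1 count in any WT library to at least 31 in each KO library. Cpa3 was lower (log2 fold change -2.13, edgeR adjusted p = 0.00268). The lacrimal list was at 26.3 to 46.1 CPM in WT and 83.4 to 163.5 CPM in KO (1 of 2 higher, 1 lower). Nearly all of it was Ltf, with 82.3, 90.3 and 162.2 CPM in KO replicates 1, 2 and 3. Amy1 fell to 19.5% of WT, Bhlha15 had too few counts for the main test, and Pip and Obp1a were not analysed. The meibomian and sebaceous list was at 0.233 to 0.331 CPM in WT and 1.07 to 1.35 CPM in KO. Its single tested gene Awat2 held 7, 5 and 7 counts for WT, against 14.03, 15 and 15 for KO. It was called higher (log2 fold change 1.30, edgeR adjusted p = 0.00963), but the call was lost in DESeq2, 1 of 15 alternative fits. The endothelial list lay between 0.0458 and 0.237 CPM in WT and between 0.81 and 0.897 CPM in KO. Its single tested gene Pecam1 was higher (log2 fold change 2.54, adjusted p = 0.00162), and Kdr and Tek were at or under 3 counts throughout. The pigment cell and lens list lay between 6.71 and 10.3 CPM in all 6 libraries (1 of 5 higher, 2 lower). In this paragraph, Dcn, Thy1, Col1a1, Ptprc, Adgre1, Awat2 and Pecam1 entered the test through their KO counts. So did Cryaa, the higher gene of the pigment cell and lens list, whereas Cpa3 and Amy1 entered through their WT counts. A difference was thus built into the selection of these genes, and their calls are not read as evidence about the tissues. The part of other tissues in the goblet cell values was not tested.

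The wider mucus pathway held genes that moved in either direction. Over 6 lists with 57 tested genes, 22 were higher and 17 lower in KO and 18 did not pass, where 31.8% of all tested genes were higher and 30.2% lower, with a median log2 fold change of 0.15 beside 0.01 for all genes tested. The higher genes include some, such as Gcnt1, Galnt6, Syt2 and Kdelr3, that entered the test through their KO counts. Among the lower genes, Nlrp6 and B3gnt6 entered it through their WT counts. For such genes a difference was built into the selection. Among other gel-forming mucins, Muc2 held 4, 3 and 9 counts for WT, against 10, 22 and 11 for KO, and was called higher (log2 fold change 1.51 ± 0.532 (SE), adjusted p = 0.0358), but this call was lost in 8 of 15 alternative fits. Muc6 and Muc19 had at most 5 counts in any library.

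Of 11 listed proteins of mucus and of goblet cell granules, 4 were tested. Fcgbp, Scin and Bcas1 were lower and none was higher, where 30.2% of all tested genes were lower. Fcgbp, which encodes a large mucus protein that binds IgG Fc, fell to 35.1% of WT, with CPM of 166.5 ± 11.9 (SD, n = 3) in WT against 58.5 ± 12.8 (SD, n = 3) in KO, and an edgeR adjusted p of 6.18e-05. Scin, the actin-severing protein scinderin, fell to 23.4% of WT (edgeR adjusted p = 5.74e-06). Bcas1 had a log2 fold change of -1.06 (adjusted p = 0.0137) with overlapping groups, and it lost its call in 3 of 16 alternative fits, without WT replicate 3 and without KO replicate 1 or 2. Clca1, a protein secreted with intestinal mucus, held 16, 24 and 12 counts for WT, against 22, 17 and 25 for KO, and did not pass (adjusted p = 0.327). These genes were thus expressed in corneal epithelium that had no Muc5ac reads.

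Of 17 tested enzymes that attach O-linked sugars to mucins, 5 were higher and 8 lower in KO. Among all tested genes, 31.8% were higher and 30.2% lower. Of the 5, C1galt1 and C1galt1c1 rose 2.53-fold and 1.43-fold from at least 100 counts in each WT library, and the other 3 rose from fewer than 14 counts. Gcnt1, which makes the core 2 branch, held 0, 1 and 0 counts for WT, against 42, 43 and 53 for KO (edgeR adjusted p = 2.66e-05). Galnt6, one of the enzymes that add the first sugar, held 0, 1 and 0 counts for WT, against 37, 16 and 40 for KO (edgeR adjusted p = 2.24e-04), where KO replicate 2 was again lowest. Fut2, the fucosyltransferase that makes the H antigen on secreted glycans, rose 37.4-fold, to 18.2 ± 0.746 CPM (SD over the KO libraries, edgeR adjusted p = 5.35e-07). Conversely, B3gnt6, which makes the core 3 branch, fell to 14.9% of WT (log2 fold change -2.72 ± 0.487 (SE), adjusted p = 0.00144). The abundant sialyltransferase gene St6galnac1 was at 28.4% of its WT level and Galnt4 at 21.2%. The call of B3gnt3 (log2 fold change -0.80, adjusted p = 0.0453) was lost in 7 of 16 alternative fits.

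Of 14 genes for the release of mucin granules, 4 were higher, 4 lower and 6 did not pass. The shares over all tested genes were 31.8% higher and 30.2% lower. Syt2, a calcium sensor of regulated secretion, rose 8.85-fold from few counts (adjusted p = 0.0012) and Sytl2, a Rab27 effector, 3.15-fold (adjusted p = 1.55e-04). Nlrp6, an inflammasome sensor with a role in goblet cell secretion, fell from 23, 25 and 23 counts in the WT libraries to 2, 4 and 1 in the KO libraries (log2 fold change -3.17 ± 0.442 (SE), adjusted p = 3.75e-04). Unc13b, which primes vesicles for fusion, fell to 31.7% of WT (adjusted p = 1.71e-05).

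Upstream of the goblet programme, 3 of 7 tested regulators were higher and 1 lower, beside 31.8% and 30.2% of all tested genes. Il4ra and Il13ra1, which form the receptor for the goblet-inducing cytokines IL-4 and IL-13, rose 3.36-fold and 3.53-fold, with adjusted p of 1.78e-05 and 1.36e-05 in edgeR. The ligand gene Il13 had at most 1 count in any library, and Stat6, which carries the signal of this receptor, did not pass (log2 fold change 0.15, adjusted p = 0.174). Foxa1, a forkhead factor related to Foxa3, held 86, 93 and 88 counts for WT, against 171, 125 and 166.27 for KO (log2 fold change 0.90 ± 0.174 (SE), adjusted p = 0.00215). Elf3, an epithelial ETS factor, fell to 46.8% of WT (adjusted p = 2.66e-04). Klf4, which also serves conjunctival goblet cells, did not pass (log2 fold change -0.32, adjusted p = 0.113), and it was called lower in 4 of 16 alternative fits.

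Of 14 tested genes of ER folding and of the Creb3 family, 9 were higher and 1 lower, where 31.8% of all tested genes were higher. The count of higher genes was 6 without WT replicate 1 and also without WT replicate 3, with Ern1, Pdia3 and Pdia5 losing their calls in both. Kdelr3, a receptor that returns escaped ER proteins, held 0, 3 and 0 counts for WT, against 29, 68 and 51 for KO (adjusted p = 2.93e-04). Here KO replicate 2 was the highest library. Sec24d, a coat protein of ER export vesicles, rose 3.54-fold (adjusted p = 1.30e-04). Pdia5 and Kdelr2 had log2 fold changes of 1.01 and 0.91, and the call of Pdia5 was lost in 3 of 16 alternative fits. In contrast to Creb3l1, its relative Creb3l2 was lower (log2 fold change -0.81, adjusted p = 6.82e-04), and Creb3 did not pass (adjusted p = 0.5).

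**Figure D4:**
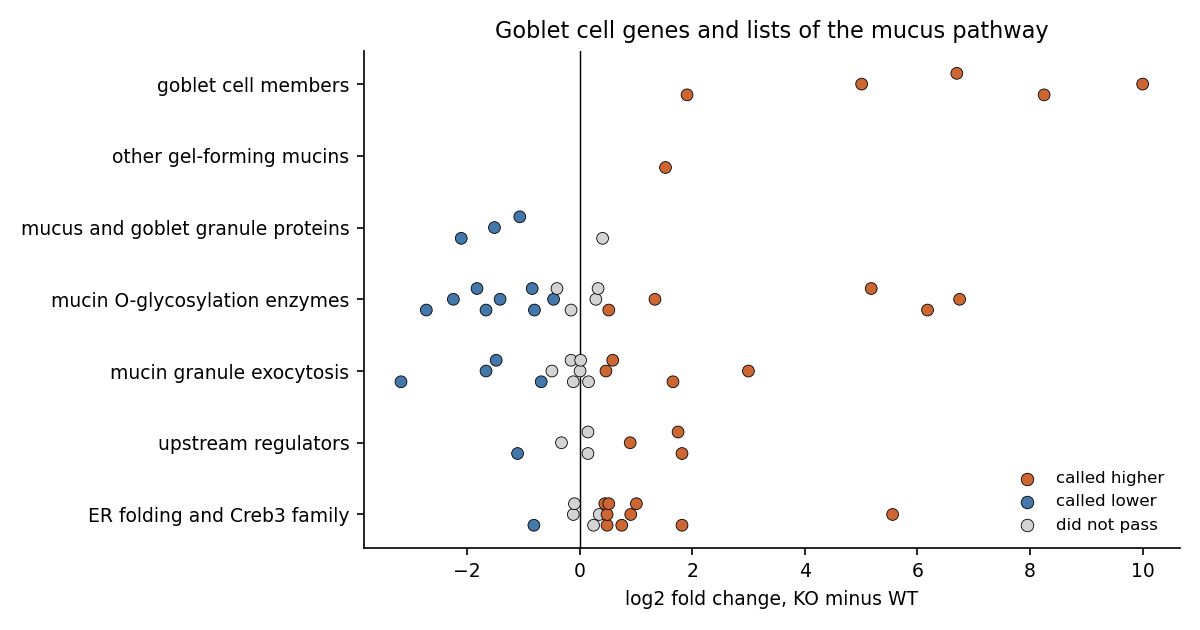
The log2 fold change (KO minus WT) of each tested gene, by list. Orange points were called higher, blue points lower and grey points did not pass an adjusted p of 0.05. The 5 tested goblet cell genes lie to the right of 0. Of these, 4 entered the test through their KO counts, so their side was built into their selection. The granule list holds only lower or uncalled genes, and the glycosylation list lies on both sides.

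Since Muc5ac and Muc5b lie side by side, the genes within 200 kb of them were read as well. Here and around Tff1 and Tff2, only genes with both ends within 10 kb of their RefSeq positions were kept. Muc6 and Muc2 lie before them and Tollip, Brsk2 and Mob2 after them. Tollip, which starts 92.6 kb from the first base of Muc5ac in the table's coordinates and encodes a regulator of Toll-like receptor signalling, did not pass (log2 fold change 0.04, adjusted p = 0.771), with between 1779 and 2297 counts in every library. Ap2a2, a clathrin adaptor gene, was lower (-0.38, adjusted p = 0.00339) and Mob2 higher (0.66, adjusted p = 5.23e-04). Of the 4 tested neighbours of the mucins, 2 were higher, 1 was lower and 1 did not pass. Over all tested genes, 31.8% were higher and 30.2% lower. Around Tff1 and Tff2 none of the 4 tested neighbours was higher and 3 were lower, including Slc37a1, a sugar phosphate transporter gene, with a log2 fold change of -1.58 and the lipid exporter gene Abcg1 with -0.93. Tmprss3, a membrane protease gene, was also lower (-1.09, adjusted p = 0.0109), Rsph1 did not pass (-0.53, adjusted p = 0.184), and Ubash3a had at most 7 counts in any library.

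**Figure D5:**
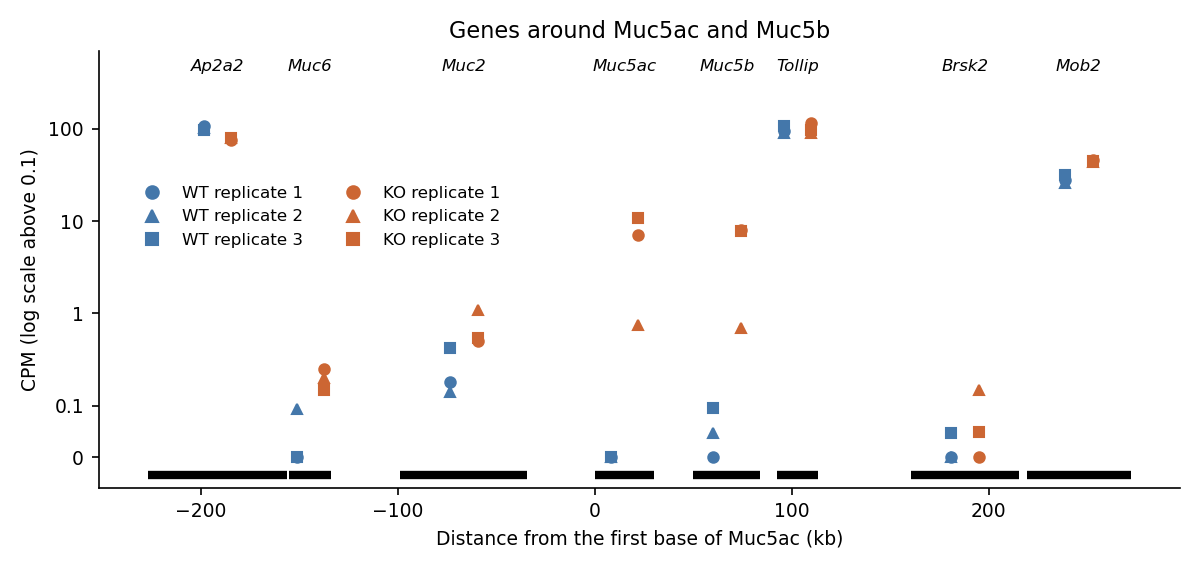
Level of each gene kept within 200 kb of Muc5ac and Muc5b, in CPM, against distance from the first base of Muc5ac. The level axis is logarithmic above 0.1, and genes with an end over 10 kb off their RefSeq position are left out. Black bars mark the extent of each gene. Muc5ac and Muc5b separate the genotypes by far more than Tollip, Ap2a2 or Mob2, which are expressed in both.

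The genes most like each member were those with the highest Pearson correlation of log2(CPM + 1) over the 6 libraries, among 12789 genes. The value is a description, because the libraries fall into 2 genotypes and any gene that differs strongly between them scores high. For Muc5ac these were Gm41476 (r = 0.9943), Akna (0.9943) and Lce6a (0.9938), and Muc5b came next. For Muc5b they were Six2 (0.9937), Muc5ac (0.9935) and Lce6a (0.9926). The mucins were thus among the closest genes to each other, and shared with Lce6a, a cornified envelope gene with 61, 14 and 72 counts in KO, the low value of KO replicate 2. For Spdef they were Lce1l (0.9989), Foxa1 (0.9985) and Iglon5 (0.9980), while Muc5b, at 0.959, stood at rank 669. Agr2 was closest to 1110012L19Rik (0.9957), Aspa (0.9952) and Tpbg (0.9885). Creb3l1 was closest to Krt1, Pros1 and Hbb-bs, each at r = 0.9998, and 373 genes exceeded 0.99 with it, beside 7 with Muc5ac and 6 with Muc5b.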

How the data were processed

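Per the study's methods, libraries were depleted of ribosomal RNA and read from one end on a BGISEQ sequencer, whereas the labels name an Illumina kit. After read filtering by SOAPnuke, the authors used Bowtie2 2.2.5 for alignment and RSEM 1.2.12 to estimate gene levels. The submitters' processing notes name mm9, but the table's chromosome accessions are those of GRCm38, and both ends of 91.9% of 17747 matched genes lay within 10 kb of RefSeq GRCm38.p6. The deposited estimated counts are not normalized and share reads that fit several genes. The deposited FPKM are such counts per gene length and sequencing depth. Of the deposited TPM only the sums were checked. The authors' columns of means and of their own DESeq2 comparison (fold changes and p-values) were not used. Strand in counting is not stated.

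Estimated counts were rounded and tested in edgeR 4.0.16 (R 4.3.3; TMM, filterByExpr, glmQLFit, glmQLFTest) with a single genotype term, and p-values were adjusted by Benjamini-Hochberg across 13305 genes. SEs are the absolute log2 fold change over the square root of F, and CPM use TMM factors between 0.952 and 1.05. Counts at or under 3 per library (0.137 to 0.152 CPM) were taken as a floor. Alternatives used DESeq2 1.42.0, limma 3.58.1, other scalings and filters, and each library left out. The edgeR script was tested on simulated data. List genes named in the text were drawn from up to 4 called genes per list of largest change with a mean of at least 20 counts in the higher group, and from genes whose call changed, though not each such gene is named. Also named were the 3 genes most like each tested member, and genes within 200 kb of the mucin and trefoil genes. A few further list genes were named after their values were seen. Members and lists were chosen with earlier results of these data known. Scripts used Python 3.11.15, pandas 2.3.3, scipy 1.17.1 and matplotlib 3.10.9.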

Additional observations from a re-analysis of the deposited data

How the results depend on the processing

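All 5 tested members were called higher in each of 16 alternatives, where 31.8% of all tested genes were higher in the main fit. Of the 5, 4 entered the test through their KO counts, so their side was built into their selection. Their agreement over the fits is therefore not read as evidence. No further member was called except in DESeq2 and in the fit with no filter, where Tff1 made it 6 (adjusted p of 0.0179 and 0.0229). The sizes depended on scale: with limma on log2(FPKM + 1) the log2 fold change of Muc5ac was 0.59 and that of Muc5b 0.41, and over the alternatives Creb3l1 ranged from 1.90 to 10.07, Spdef from 2.11 to 5.38 and Agr2 from 1.33 to 2.2. With each library left out in turn, 5 members were called, and between 7282 and 8145 of all genes. Of 92 other listed genes tested, 76 kept their call in every alternative that tested them and none changed direction while called. The replicate number as a block gave 8083 called genes and the same 5 members. Deviations of same-numbered WT and KO libraries correlated at 0.034, -0.01 and 0.061, and WT replicate 1 was closer to KO replicate 2 (0.123). These values show no pairing by number, but they cannot exclude a weak one. Depth limits Tff1, Tff2 and Foxa3, whose counts were too few for the main test, and with 3 libraries per group the KO mean of Muc5ac rests largely on KO replicates 1 and 3.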

Other observations

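A search made after the values were seen asked which genes shared the gap of the mucins in KO replicate 2. Of 11347 genes with a KO mean of at least 50 counts, 5 were at least 5-fold lower in that library than in both other KO libraries. Muc5ac and Muc5b were 2 of them, beside Ccer2, Gm41476 and LOC102639653. The same search gave 5 genes for KO replicate 1 and 8 for KO replicate 3. Gm41476 had 59.42, 9.76 and 89.39 estimated counts in KO and between 0.95 and 5.49 in WT.

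Further listed genes, named after their values were seen, moved in either direction. St6galnac2, a sialyltransferase, fell to 31.6% of its WT level (log2 fold change -1.66, adjusted p = 1.73e-06, edgeR). Rab3d, a GTPase of secretory granules, had a log2 fold change of -0.68 (adjusted p = 2.57e-04, edgeR), and Unc13d, a priming factor related to Unc13b, had -1.48 (adjusted p = 1.38e-04, edgeR). In contrast, Xbp1 and Hspa5, a transcription factor and a chaperone of the ER, were 1.43-fold and 1.68-fold higher in KO (adjusted p of 0.00127 and 0.00496, edgeR). The C1galt1 gene, for the enzyme that makes the core 1 sugar, rose 2.53-fold (adjusted p = 7.88e-05, edgeR).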
